A study of Mus musculus with 16 samples.

Results

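Regulators of G protein signalling (RGS) are the proteins that switch heterotrimeric G proteins off, and 8 of their genes were followed here in mouse group 2 innate lymphoid cells (ILC2s): Rgs1, Rgs2, Rgs3, Rgs10, Rgs14, Rgs16, Rgs18 and Rgs19. They are 8 of the 21 measured Rgs genes and of 22180 measured genes in all. The family was chosen by the measured values themselves, for the high level of Rgs16 in lung ILC2s after IL-33, so every value of Rgs16 is given as a description with no test. The other 7 members were listed beside it and were tested against all 22180 genes. ILC2s are tissue-resident lymphocytes that answer the alarm cytokine IL-33 with type 2 cytokines, and the arrays asked how their expression moved with time after IL-33 and with the organ they were taken from. Lung ILC2s came from untreated (naive) mice (n = 2 arrays) and from mice given IL-33 into the nose, taken at day 4 (n = 3), at week 2 (n = 3) or at 4 months (n = 2). The mediastinal lymph node (mLN), where lung lymph drains, gave ILC2s from day 4 (n = 3) and week 2 (n = 3) after the same treatment, with no naive or 4-month counterpart. The strain is given as C57BL/6J on the lung samples, and the labels of the lymph node samples name none. No transgene or deletion is named for any group. The sources used here do not give the age of the animals, the pooling of animals or the markers of the sort. The titles call the arrays biological replicates, and since nothing says that they came from separate animals, the p-values measure the spread between these samples.

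A G protein-coupled receptor bound by its ligand makes the G alpha subunit exchange GDP for GTP, which releases G alpha from G beta-gamma so that both can act on enzymes and channels. RGS proteins bind the GTP-bound G alpha subunit and speed up its GTP hydrolysis, which ends the signal and shortens the response to chemokines, lipids and neuropeptides. In lymphocytes they are known for setting how far and how long cells follow chemokine gradients.

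The promoter of Rgs16 is shown first because Rgs16 had the widest range of the 8 genes, and those of Rgs2 and Rgs10 are set beside it as members with other time courses. Each is the 250 bases before the annotated RefSeq start of the gene in GRCm38.p6, written 5′ to 3′ on the strand of the gene, with matches to the motifs searched in capitals. Rgs16 lies at chr1:153740103-153740352 on the plus strand, Rgs2 at chr1:144004150-144004399 on the minus strand and Rgs10 at chr7:128418173-128418422 on the minus strand.
Rgs16: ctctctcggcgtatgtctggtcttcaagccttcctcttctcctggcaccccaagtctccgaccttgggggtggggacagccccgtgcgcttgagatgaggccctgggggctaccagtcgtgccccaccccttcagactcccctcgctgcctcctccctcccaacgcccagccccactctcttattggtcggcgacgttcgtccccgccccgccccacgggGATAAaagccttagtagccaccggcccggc
Rgs2: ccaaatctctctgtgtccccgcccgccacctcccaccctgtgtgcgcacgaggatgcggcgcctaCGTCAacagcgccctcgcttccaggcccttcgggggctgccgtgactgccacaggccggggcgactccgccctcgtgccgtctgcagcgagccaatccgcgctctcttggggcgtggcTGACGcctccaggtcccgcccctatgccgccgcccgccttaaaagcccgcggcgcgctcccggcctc
Rgs10: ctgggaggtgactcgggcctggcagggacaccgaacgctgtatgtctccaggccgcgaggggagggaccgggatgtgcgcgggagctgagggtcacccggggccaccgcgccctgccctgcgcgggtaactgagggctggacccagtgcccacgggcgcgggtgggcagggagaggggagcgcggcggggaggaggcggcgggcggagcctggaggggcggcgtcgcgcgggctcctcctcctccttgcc

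The Rgs16 window had a GC content of 66.4%, that of Rgs2 72.4% and that of Rgs10 76.4%, against a median of 52.4% over all 32851 promoter windows of that length. They held 17, 30 and 27 CpG dinucleotides. Both strands were searched for 6 motifs: the GATA core GATAA (in 22.6% of all windows), the half-site of the cyclic AMP response element TGACG (17.8%), the AP-1 site TGANTCA (6.75%), the NFAT core GGAAAA (20.4%), the TATA box TATAAA (12.4%) and the kappaB site by its name alone (7.25%). The Rgs16 window held 1 match, to GATAA, 30 to 26 bases before the start. The Rgs2 window held the cyclic AMP half-site 2 times, at 185 to 181 bases before the start on the opposite strand and at 67 to 63 bases on the strand of the gene. The Rgs10 window held none of these letters. RefSeq entries were used for 5 of the 8 members, Rgs2, Rgs3, Rgs10, Rgs16 and Rgs19, and Rgs1, Rgs14 and Rgs18 are named only. A match describes the letters of the window and not a bound site.

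The labelled cell type was checked against 12 measured ILC2 markers of 15 listed. Their mean log2 signal ranged from 9.03 to 9.74 over the 16 arrays and was 9.03 to 9.07 on the naive ones. Group means were 8.96 to 9.59 for Gata3 and 10.83 to 11.34 for Il7r, but 7.71 (naive lung) to 10.39 (week 2 lymph node) for Il17rb. By the test described below, 5 of the 12 rose and 1 fell (Il2ra) at day 4 against naive lung, where 10.8% of all genes rose and 5.73% fell. Values are log2 RMA signals (robust multi-array average), on which 1 unit is a doubling, and no level of one gene is set against that of another because probes differ in brightness. The mean of 12 T cell markers was 6.14 to 6.37 on the naive arrays and 4.83 to 5.17 on all others. At day 4 against naive lung 7 of these 12 fell and 0 rose. Cd3e had group means of 9.18 in naive and 6.01 in day 4 lung, and Cd8b1 6.70 and 3.55, while Cd3g had 8.69 and 8.98. The mean of 13 macrophage markers was 5.73, 5.79 and 4.40 on day 4 lung replicates 1, 2 and 3, 4.26, 4.03 and 5.35 on week 2 lung replicates 1, 2 and 3, 4.18 to 4.96 on the naive and 4-month arrays and 3.60 to 3.91 on the lymph node arrays. The mean of 7 neutrophil markers was 5.62 and 5.32 on the 4-month arrays and 5.26 and 3.68 on the naive ones. It was 5.35, 5.18 and 3.50 on day 4 lung replicates 1, 2 and 3, and 4.03, 3.58 and 4.91 on those of week 2. On lymph node arrays it was 3.10 to 3.23. The mean of 8 measured B cell markers was 4.35 to 4.66 on the 4-month arrays and 3.75 to 4.24 on all others. The part of neutrophils and B cells in the values of the members was not tested. The interquartile range of the signals was 2.05 to 2.47 on the naive and 4-month arrays and 2.85 to 3.07 on the other 12. Replicates of a group correlated at 0.937 in the naive and 0.947 in the 4-month group and at 0.977 or more elsewhere.

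Rgs16 encodes a small RGS protein that acts on Gi and Gq family subunits and is known as a gene induced in activated lymphocytes. Its log2 signal was 5.55 and 4.63 on the 2 naive lung arrays. It was 9.58, 9.04 and 10.37 on the day 4 lung arrays and 8.59, 8.40 and 8.28 on the week 2 lung arrays. These 6 lung arrays lay above every other array. On the 4-month lung arrays it was 4.87 and 6.69, 1 array within the naive range and 1 above it. The lymph node arrays gave 3.73, 4.52 and 4.93 at day 4 and 5.14, 5.50 and 4.99 at week 2, so that none of these reached the lowest lung array of day 4 or week 2.

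The mean of Rgs16 in the lung was 5.09 ± 0.65 (SD, n = 2) in naive mice, 9.66 ± 0.67 (SD, n = 3) at day 4, 8.42 ± 0.16 (SD, n = 3) at week 2 and 5.78 ± 1.29 (SD, n = 2) at 4 months. For the lymph node it was 4.39 ± 0.61 (SD, n = 3) at day 4 and 5.21 ± 0.26 (SD, n = 3) at week 2. Day 4 lung was higher than naive lung by 4.57 (SE 0.47), a 23.8-fold difference, and week 2 lung was higher by 3.33 (SE 0.47). Beyond day 4 the level was lower, with a week 2 minus day 4 difference of -1.24 (SE 0.42) and a 4 months minus week 2 difference of -2.64 (SE 0.47). The 4 months minus naive difference was 0.69 (SE 0.51), and leaving out either 4-month array gave 1.60 or -0.22, so its sign rested on 1 array. At day 4 the lymph node minus lung difference was -5.27 (SE 0.42), or 38.6-fold, and at week 2 it was -3.21 (SE 0.42). From day 4 to week 2 the lymph node mean was higher by 0.82 (SE 0.42) while the lung mean was lower, and these 2 changes differed by 2.06 (SE 0.59), not tested. In bulk samples like these, fewer cells of a type and less RNA per cell cannot be told apart.

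**Figure D1:**
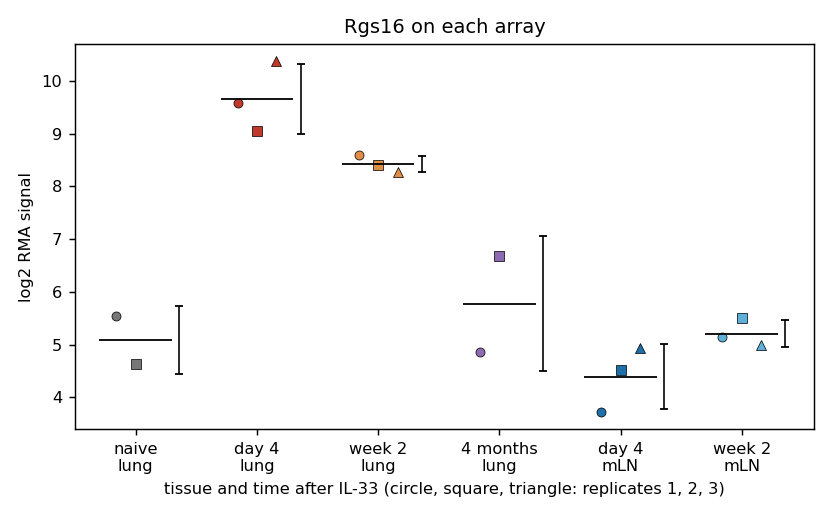
Rgs16 log2 RMA signal (vertical axis) on each of the 16 arrays by tissue and time (horizontal axis). Horizontal lines are group means and bars are SD (n = 2 or 3). The 6 lung arrays of day 4 and week 2 sit between 8.28 and 10.37, and all others at 6.69 or lower.

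The group means of Rgs16 ranged over 5.27 log2 units, against a median of 0.70 over all genes, and 14 of 22180 genes (0.0631%), itself included, ranged at least as widely. That range is what singled the gene out and is given here without a test. Of the order of its groups, day 4 lung and week 2 lung did not overlap and week 2 lung and 4-month lung did not overlap. The 4-month lung, week 2 lymph node and naive lung arrays overlapped one another, and the day 4 lymph node arrays overlapped the naive ones. The macrophage marker mean was highest on day 4 lung replicates 1 and 2, where Rgs16 was 9.58 and 9.04, and lower on replicate 3, where Rgs16 was 10.37. Without these 2 arrays and week 2 lung replicate 3, whose macrophage mean was 5.35 (together the macrophage-high arrays), 1 day 4 and 2 week 2 lung arrays remained. The remaining day 4 array was higher than the naive mean by 5.28 and the week 2 mean by 3.40, and the lymph node minus lung difference was -5.98 against that 1 day 4 array and -3.28 at week 2. In every fit without the macrophage-high arrays the lone day 4 lung array is assumed to vary like the other groups, which give the spread.

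Among 4792 genes whose group means ranged over at least 1 log2 unit, the 6 whose signals followed Rgs16 most closely over the 16 arrays were Cd44, Dmxl2, Galc, Palld, Ptprs and Pdcd1. Pearson's r was 0.94 for Cd44, the hyaluronan receptor of activated lymphocytes, 0.94 for Dmxl2 and 0.94 for Galc, a lysosomal galactosylceramidase. It was 0.93 for Palld, an actin-binding protein, 0.93 for Ptprs, a receptor tyrosine phosphatase, and 0.91 for Pdcd1, the inhibitory receptor PD-1. These are descriptions over 16 points that share 6 groups, in which the day 4 and week 2 lung arrays set most of the spread. The changes of these genes were smaller than that of Rgs16. Palld had lung group means of 4.02 (naive), 5.72 (day 4), 5.46 (week 2) and 4.28 (4 months), and 3.93 and 3.98 in the lymph node. Cd44 had 8.41, 9.48, 9.37 and 8.84 in the lung in the same order, and 8.38 and 8.67 in the lymph node. Pdcd1 had 6.13, 7.56, 6.74 and 6.37 in the lung, and 5.64 and 5.57 in the lymph node.

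**Figure D2:**
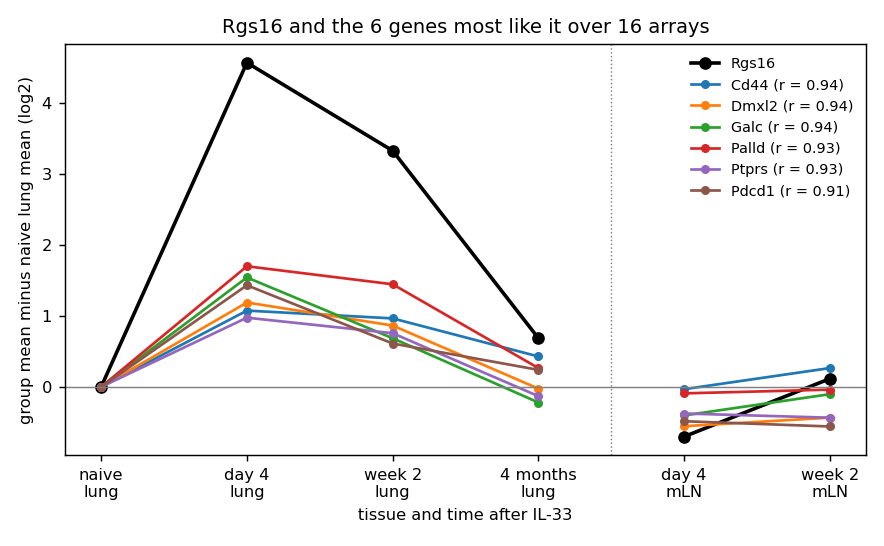
Group means of Rgs16 and of the 6 genes with the highest Pearson's r to it over 16 arrays, each minus its own naive lung mean (vertical axis, log2), by tissue and time. Lines join the groups of 1 tissue. Rgs16 stands 4.57 above naive lung at day 4, and the 6 other genes stand higher there by smaller steps and lie close to or below their naive level in the lymph node.

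The other 7 members were compared with limma, with Benjamini-Hochberg adjustment over all 22180 genes and an adjusted p under 0.05 as the threshold. Other settings, such as weights that count noisy arrays less, were read for the members alone and are named where they change a call. The calls of all other genes named below come from the main fit and were not checked under other settings. At day 4 against naive lung 3 of 7 rose (Rgs1, Rgs10 and Rgs18) and 0 fell, where 10.8% of all genes rose and 5.73% fell. At week 2 against naive lung 2 of 7 rose (Rgs1 and Rgs18) and 0 fell, against 6.75% and 2.87% of all genes. At 4 months against naive lung 0 rose and 1 fell (Rgs19), against 0.717% and 1.25%. From day 4 to week 2 in the lung 0 rose and 1 fell (Rgs10), against 0.419% and 1.39%. Between week 2 and 4 months 0 rose and 4 fell (Rgs1, Rgs14, Rgs18 and Rgs19), against 4.85% and 11.5%. Without adjustment limma gave 4 higher and 0 lower, 3 and 0, 2 and 2, 1 and 1, and 0 and 4 in these 5 comparisons. The share of all genes without adjustment was not counted, and the shares above are no background for these counts. With 7 genes these shares are small counts, and the members were listed with earlier results of these arrays known.

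None of the 7 passed in the comparisons that involve the lymph node. From day 4 to week 2 in the lymph node 0.528% of all genes rose and 1.18% fell. In the lymph node against the lung 0.978% were higher and 1.35% lower at day 4, and 0.334% were higher and 0.446% lower at week 2. The test of whether the day 4 to week 2 change differed between lymph node and lung called 0.0676% of genes with a larger change in the lymph node and 0.113% with a smaller one. By limma without adjustment, 1 of the 7 was under 0.05 from day 4 to week 2 in the lymph node (Rgs2), 1 between tissues at day 4 (Rgs2), 2 between tissues at week 2 (Rgs10 and Rgs18) and 1 in the test of differing change (Rgs10). Here too the share of all genes without adjustment was not counted. The median change of the 7 was 0.38 at day 4 and 0.17 at week 2 against naive lung, where that of all genes was -0.06 and -0.04. Between week 2 and 4 months it was -0.68, against 0.02 over all genes. The naive and 4-month arrays had the narrower signal range given above, and its part in these medians was not tested.

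**Figure D3:**
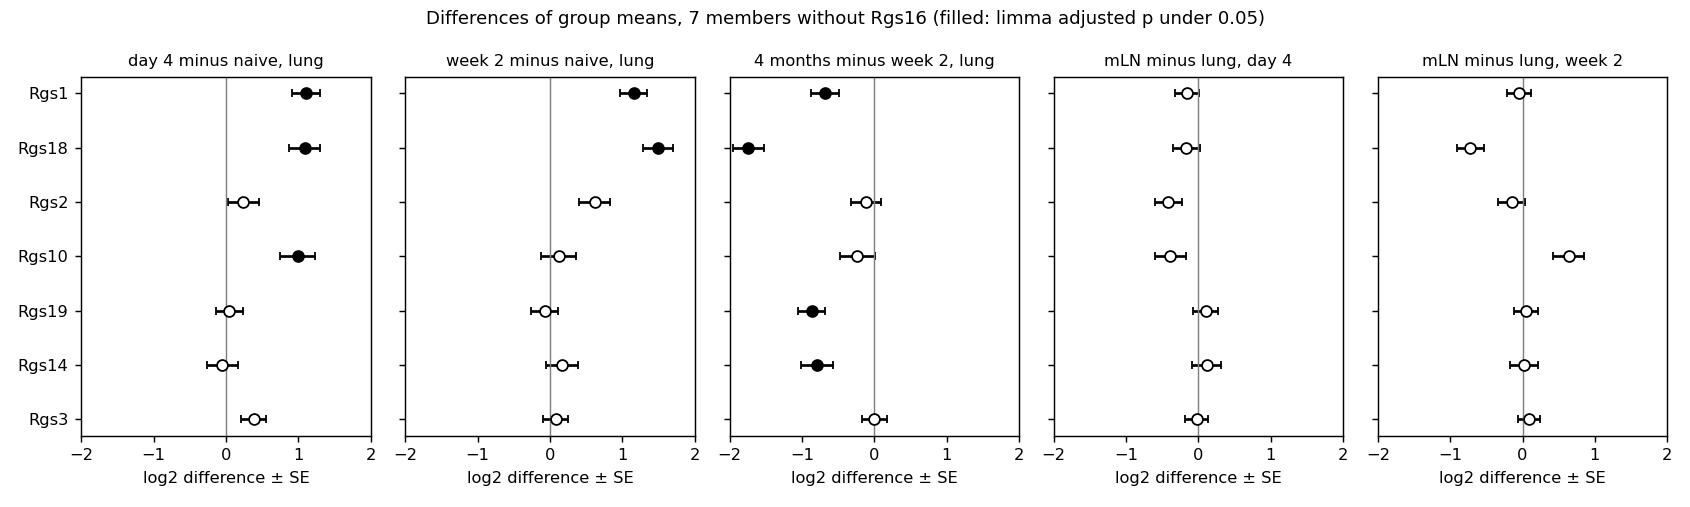
Differences of group means (horizontal axis, log2, with limma's standard error) of the 7 members without Rgs16 in 5 comparisons. Filled points passed an adjusted p under 0.05. Rgs1 and Rgs18 stand 1.09 to 1.49 above naive lung at day 4 and week 2, and no point of the lymph node panels is filled.

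Rgs1 restrains chemokine receptor signalling in lymphocytes. Its log2 signal was 8.08 and 7.76 in naive lung, and it was 9.02, 8.94 and 9.12 at day 4 and 9.17, 9.17 and 8.90 at week 2. All 6 IL-33 lung arrays of these times were above both naive arrays. It was 8.42 and 8.37 at 4 months, between the naive and the week 2 arrays. Its lymph node values were 8.81, 8.62 and 9.18 at day 4 and 9.12, 9.02 and 8.94 at week 2, so that the groups of the 2 tissues overlapped at both times. Rgs1 rose by 1.11 (SE 0.19, 2.15-fold, adjusted p = 0.00105) at day 4 and by 1.16 (SE 0.19, adjusted p = 0.00163) at week 2 against naive lung. Both rises passed under every alternative run. With repeated quantile normalization they were smaller, 0.87 (limma adjusted p = 0.0102) at day 4 and 0.94 (adjusted p = 0.0122) at week 2. Without the macrophage-high arrays they were 1.20 (adjusted p = 0.0336, with n = 1 array at day 4) and 1.25 (adjusted p = 0.0123, with n = 2 at week 2). Rgs1 then fell by 0.68 (SE 0.19, adjusted p = 0.0239) from week 2 to 4 months, a call that was lost when week 2 replicate 1 or 2 or either 4-month array was left out (adjusted p of 0.0549 to 0.113), with the macrophage-high arrays left out (adjusted p = 0.0635), with array weights (adjusted p = 0.0992), with only the groups compared in the fit (adjusted p = 0.0613) and with repeated quantile normalization (-0.33, adjusted p = 0.348). The lymph node minus lung difference was -0.16 (SE 0.17) at day 4 and -0.05 (SE 0.17) at week 2. The naive arrays to which Rgs1 was compared were also those with the highest T cell marker means, 6.14 to 6.37. The mean of 7 measured NK cell markers was 4.69 to 4.70 on the naive, 3.49 to 3.67 on the day 4 lung, 3.65 to 4.03 on the week 2 lung and 4.201 to 4.84 on the 4-month arrays. On the lymph node arrays it was 3.47 to 3.53 at day 4 and 3.25 to 3.52 at week 2. Of the 7, 4 fell and 0 rose at day 4 against naive lung, where 5.73% of all genes fell and 10.8% rose. From week 2 to 4 months 2 of the 7 rose and 0 fell, where 4.85% of all genes rose and 11.5% fell. The part of T and NK cells in the changes of Rgs1 and Rgs18 was not tested.

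Rgs18 is expressed mainly in blood cells and is best known from megakaryocytes and platelets, where it limits Gi and Gq signalling. The log2 signal of Rgs18 was 6.27 and 7.02 in naive lung, 7.97, 7.66 and 7.57 at day 4, 8.10, 8.30 and 8.01 at week 2 and 6.51 and 6.29 at 4 months. The day 4 and week 2 lung arrays lay above all naive and 4-month ones, and each week 2 array lay above each day 4 array. The lymph node arrays gave 7.63, 7.61 and 7.46 at day 4 and 7.38, 7.36 and 7.50 at week 2, the latter all below the week 2 lung arrays. Against naive lung Rgs18 rose by 1.09 (SE 0.21, adjusted p = 0.00255) at day 4 and by 1.49 (SE 0.21, 2.81-fold, adjusted p = 0.000656) at week 2. It then fell by 1.74 (SE 0.21, 3.34-fold, adjusted p = 0.000244) from week 2 to 4 months. With repeated quantile normalization the rises were smaller, 0.83 at day 4 and 1.27 at week 2, as was the later fall (-1.35). The week 2 rise and the later fall passed under every alternative run, while the day 4 rise did not pass with the macrophage-high arrays left out (0.93, adjusted p = 0.122, with n = 1 array at day 4) and with only the groups compared in the fit (adjusted p = 0.0587). The week 2 lymph node minus lung difference of -0.72 (SE 0.19, adjusted p = 0.107) did not pass, but it passed with array weights (adjusted p = 0.01), with only the groups compared (adjusted p = 0.0482), in a fit of the 12 arrays of groups of 3 (adjusted p = 0.0218) and without either naive array (adjusted p = 0.0327). The mean of 6 measured platelet markers was 3.82 to 3.96 in naive lung, 3.62 to 3.65 at day 4, 3.75 to 3.83 at week 2 and 4.03 to 4.15 at 4 months in the lung, and its part in Rgs18 was not tested.

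Rgs10 is a small RGS protein acting on Gi subunits, known from microglia and macrophages. Rgs10 measured 7.08 and 7.16 in naive lung and 8.26, 8.27 and 7.80 at day 4. It was 7.35, 7.44 and 6.92 at week 2 and 7.07 and 6.93 at 4 months. Only the day 4 lung arrays lay wholly above those of the other lung groups. Values in the lymph node were 7.91, 7.77 and 7.49 at day 4 and 8.17, 8.02 and 7.42 at week 2. Rgs10 rose by 0.99 (SE 0.24, 1.99-fold, adjusted p = 0.00999) at day 4 against naive lung and fell by 0.88 (SE 0.21, adjusted p = 0.0471) from day 4 to week 2 in the lung. The 2 day 4 arrays with the highest Rgs10, replicates 1 and 2, were also those with the highest macrophage marker means, 5.73 and 5.79 against 4.40 on replicate 3, while week 2 replicate 3, with a macrophage mean of 5.35, had the lowest Rgs10 of its group. With these 3 arrays left out, which leaves n = 1 array at day 4, the rise was 0.68 (adjusted p = 0.277) and the fall 0.41 in size (adjusted p = 1), and neither passed. The rise was also lost with array weights (adjusted p = 0.0517) and with repeated quantile normalization (adjusted p = 0.0826), and the fall was lost when any of 9 arrays, all those of day 4 and week 2 except day 4 lung replicate 3 and week 2 lymph node replicates 1 and 3, was left out in turn (adjusted p of 0.0503 to 0.224). The fall did not pass with repeated quantile normalization (adjusted p = 0.0952) or with only the groups compared (adjusted p = 0.0556). At week 2 the lymph node minus lung difference was 0.64 (SE 0.21, adjusted p = 0.271), which passed with array weights (0.74, adjusted p = 0.0352). The change from day 4 to week 2 was 1.03 (SE 0.30, adjusted p = 0.307) larger in the lymph node than in the lung, which passed with array weights (1.16, adjusted p = 0.0482).

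Rgs2 acts preferentially on Gq and is a known early response gene. On the probe set used, the brighter of 2, it was 10.73 and 10.77 in naive lung, 10.92, 10.81 and 11.27 at day 4, 11.38, 11.33 and 11.39 at week 2 and 11.30 and 11.20 at 4 months. In the lymph node it was 10.30, 10.45 and 11.00 at day 4 and 11.36, 11.24 and 11.05 at week 2. All IL-33 lung arrays were above both naive arrays, and the week 2 lymph node arrays were above all day 4 lymph node arrays. None of these differences passed, with 0.61 (SE 0.21, adjusted p = 0.0733) at week 2 against naive lung and 0.63 (SE 0.19, adjusted p = 0.135) from day 4 to week 2 in the lymph node. The first passed with array medians centred (adjusted p = 0.0408), with limma's trend and robust options (adjusted p = 0.0332) and without day 4 lymph node replicate 3 (adjusted p = 0.0442). The second passed with array weights (adjusted p = 0.0269), with the trend and robust options (adjusted p = 0.0438) and without that same replicate (0.84, adjusted p = 0.0208).

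The other Rgs2 probe set gave 11.02 and 10.79 in naive lung, 10.38, 10.49 and 11.15 at day 4, 11.38, 11.44 and 11.37 at week 2 and 11.02 and 11.11 at 4 months. In the lymph node it gave 9.96, 9.73 and 10.59 at day 4 and 10.66, 10.64 and 10.81 at week 2. The 2 probe sets correlated at 0.81 (Pearson's r) over the 16 arrays, which share the same RNA, but disagreed on the sign of the day 4 minus naive lung difference, 0.24 (SE 0.21) on the first and -0.23 (SE 0.25) on the second. The sign also turned in the test of differing change between tissues, 0.26 (SE 0.26) on the first and -0.11 (SE 0.31) on the second. They also differed in the week 2 lymph node minus lung difference, -0.15 (SE 0.19) on the first and -0.69 (SE 0.22, adjusted p = 0.241) on the second, and neither passed. On both, week 2 lung had the highest mean of the lung groups and day 4 lymph node the lowest of all.

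**Figure D4:**
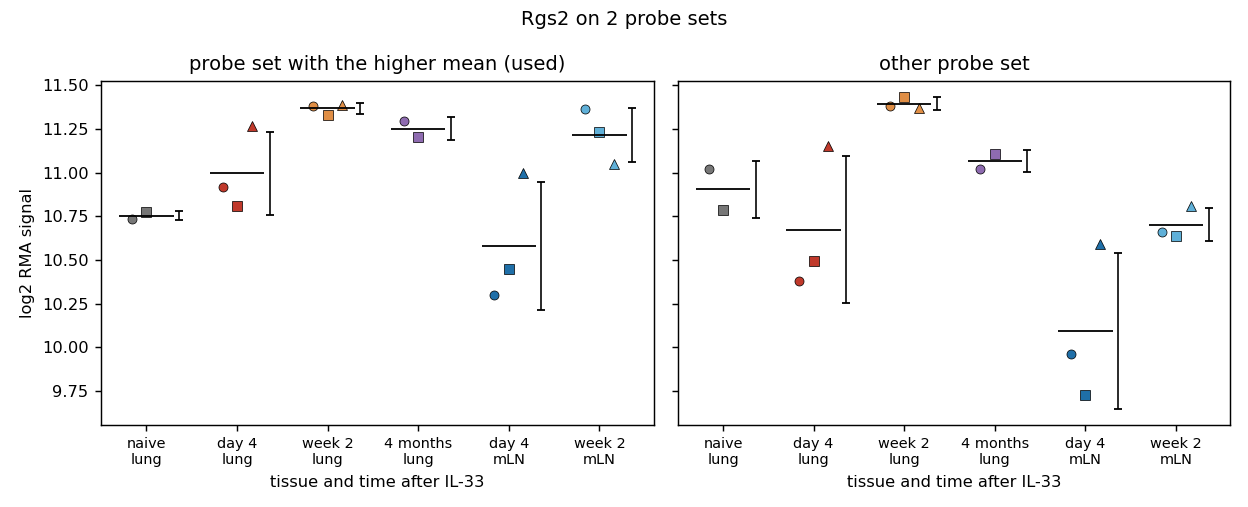
Rgs2 log2 RMA signal (vertical axis) on each array for the probe set used (left) and the other one (right), by tissue and time. Lines are group means, bars SD (n = 2 or 3). The week 2 lung arrays lie between 11.33 and 11.44 on both, and the day 4 lung arrays lie above naive lung on the left only.

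Rgs19, also known as GAIP, acts on Gi subunits. Its log2 signal was 6.63 and 6.64 in naive lung, 6.74, 6.76 and 6.54 at day 4, 6.67, 6.51 and 6.49 at week 2 and 5.43 and 5.96 at 4 months. Lymph node values were 6.91, 6.79 and 6.64 at day 4 and 6.77, 6.58 and 6.49 at week 2. The 2 arrays of 4 months were the lowest of all 16, and all others lay between 6.49 and 6.91. Rgs19 fell by 0.94 (SE 0.20, adjusted p = 0.0264) at 4 months against naive lung and by 0.87 (SE 0.19, adjusted p = 0.00746) against week 2. Without 4-month replicate 1 the falls were 0.67 (adjusted p = 0.141) and 0.60 (adjusted p = 0.118) in size, and neither passed. The first was also lost with array weights (adjusted p = 0.514), with only the groups compared in the fit (adjusted p = 0.87), without naive replicate 2 (adjusted p = 0.0598) and without the macrophage-high arrays (adjusted p = 0.0742), and the second with only the groups compared (adjusted p = 0.0512). The naive and 4-month arrays both had the narrower signal range given above. Repeated quantile normalization gives all arrays the same distribution of probe set signals. With it the difference at 4 months was -0.93 (adjusted p = 0.0187) against naive lung and -0.63 (adjusted p = 0.0485) against week 2. The part of the range in the falls was not tested further.

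Rgs14 combines an RGS domain with a GoLoco motif that holds Gi subunits in their GDP-bound form. Its log2 signal was 5.84 and 6.34 in naive lung, 5.91, 6.11 and 6.10 at day 4, 6.11, 6.35 and 6.31 at week 2 and 5.36 and 5.56 at 4 months. In the lymph node it was 6.34, 6.30 and 5.84 at day 4 and 6.11, 6.09 and 6.63 at week 2. As for Rgs19, both 4-month arrays were below every other array. Rgs14 fell by 0.80 (SE 0.22, adjusted p = 0.0234) from week 2 to 4 months, which was lost with array weights (adjusted p = 0.0845), with repeated quantile normalization (adjusted p = 0.105), without the macrophage-high arrays (adjusted p = 0.1) and without 4-month replicate 1 (adjusted p = 0.183), week 2 replicate 2 (adjusted p = 0.0718) or week 2 replicate 3 (adjusted p = 0.0664). Rgs3, which acts on Gi and Gq subunits and limits migration towards chemokines, passed in no comparison. The log2 signal of Rgs3 was 4.90 and 4.76 in naive lung, 5.15, 5.07 and 5.42 at day 4, 4.75, 5.09 and 4.88 at week 2 and 4.87 and 4.94 at 4 months. The lymph node values were 5.04, 5.24 and 5.29 at day 4 and 5.05, 4.94 and 5.002 at week 2. Its 16 values lay within 4.75 to 5.42, with day 4 lung above naive lung on every array.

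**Figure D5:**
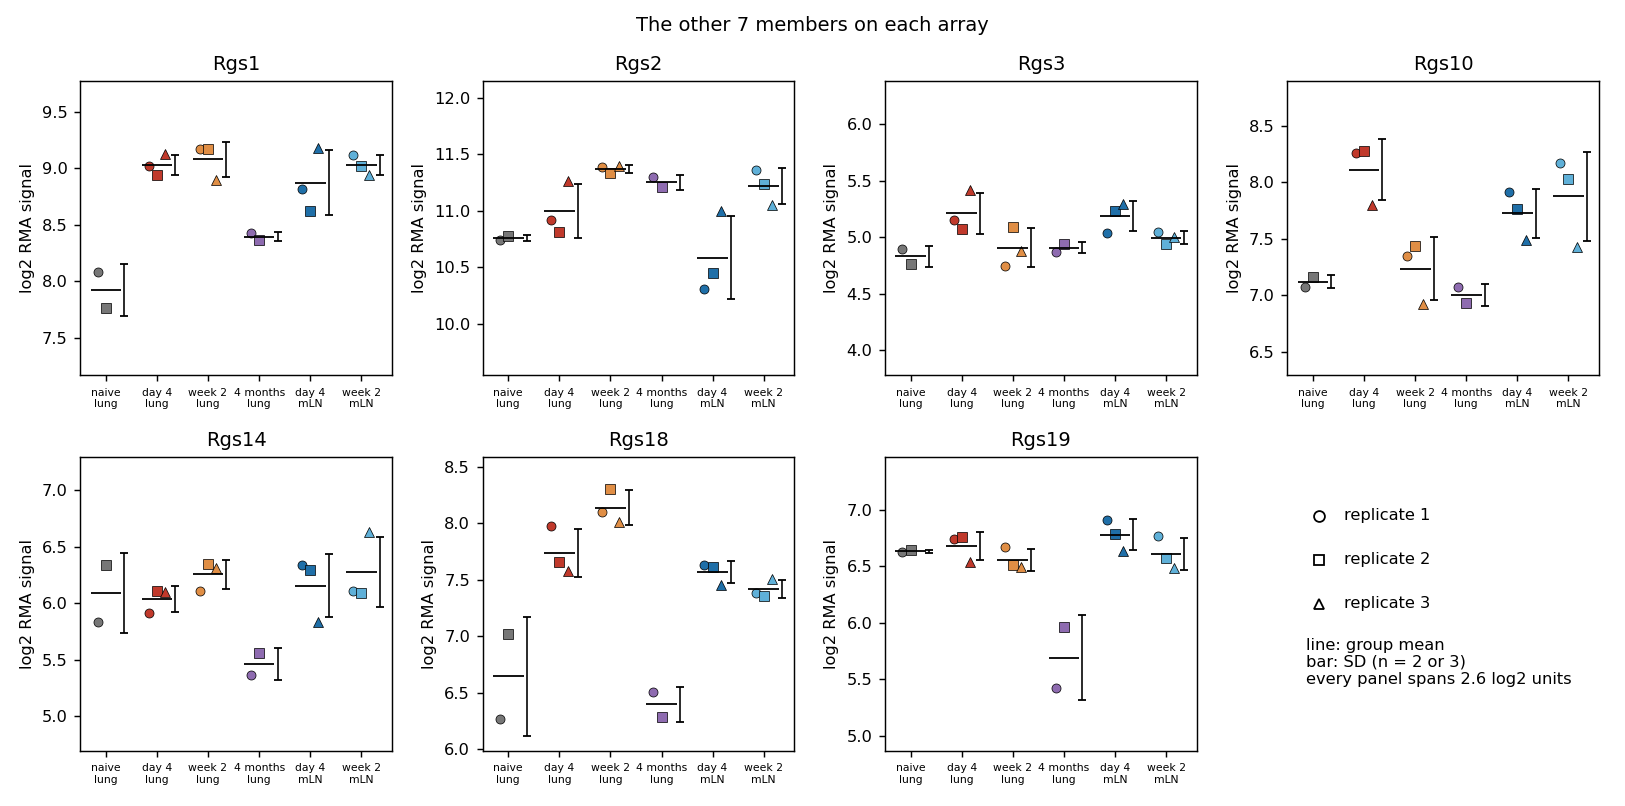
Log2 RMA signal (vertical axis, each panel spanning 2.6 units) of Rgs1, Rgs2, Rgs3, Rgs10, Rgs14, Rgs18 and Rgs19 on each array by tissue and time. Lines are group means, bars SD (n = 2 or 3). Rgs1 and Rgs18 are low in naive lung and at 4 months, and Rgs14 and Rgs19 are low at 4 months. Rgs10 is higher in day 4 lung than in the other lung groups, and both lymph node groups overlap day 4 lung.

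The 8 genes did not share 1 profile. Over the 16 arrays the closest of the 28 pairs were Rgs1 and Rgs18 (Pearson's r 0.73) and Rgs14 and Rgs19 (0.67), and the highest r of Rgs16 with any other member was 0.46, with Rgs18. Points of a group share their tissue and time and the 4-month arrays share a narrow range, so these are given without a p. In the order of protein-coding genes on chromosome 1, Rgs2, Rgs13, Rgs1, Rgs21 and Rgs18 follow one another and Rgs8 lies next to Rgs16, and 11 of the 21 Rgs genes are on that chromosome. Among these neighbours, Rgs21, between Rgs1 and Rgs18, stayed between 2.02 and 2.96 on all arrays. Rgs8, beside Rgs16, was 4.70 and 4.18 in naive lung and 4.60, 4.52 and 4.73 at day 4, so that these groups overlapped.

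All array values of the 13 other Rgs genes lay between 1.48 and 5.54. At day 4 against naive lung 1 of them rose and 0 fell, where 10.8% of all genes rose and 5.73% fell. That gene was Rgs12, a large RGS protein that also carries a GoLoco motif, at 4.40 and 3.14 in naive lung and 4.68, 4.91 and 4.92 at day 4 (1.07, SE 0.30, adjusted p = 0.0241). Between week 2 and 4 months 2 rose and 0 fell, against 4.85% and 11.5% of all genes. Rgs13 rose by 1.21 (SE 0.25, adjusted p = 0.00545), from a mean of 1.60 to 2.81, and Rgs22 by 0.82 (SE 0.21, adjusted p = 0.0149), from 2.59 to 3.41, and both had their highest values of all arrays at 4 months. Both were dim on every array, below the 3.73 at which the filter on dim genes was set. The 4-month arrays also had the narrower signal range given above, and its part in these rises was not tested. None of the 13 passed in the other 7 comparisons, where limma without adjustment gave 1 higher and 1 lower at week 2 against naive lung, 3 higher at 4 months against naive lung and 1 lower in the lymph node than in the lung at week 2. No share of all genes without adjustment was counted beside these.

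Other proteins that carry an RGS domain include scaffolds, receptor kinases and guanine nucleotide exchange factors, and 13 of 14 listed genes were measured. At day 4 against naive lung 3 rose and 0 fell: Snx25 by 1.36 (SE 0.19, adjusted p = 0.000222), Axin1, a Wnt pathway scaffold, by 1.12 (SE 0.21) and Grk5, a receptor kinase, by 0.71 (SE 0.19). At week 2 these 3 were again higher, Grk5 by 1.07, Snx25 by 1.03 and Axin1 by 0.98, together with Arhgef11 by 0.87, and 0 fell. Then 1 rose from week 2 to 4 months (Arhgef12 by 1.23) and 5 fell, among them Axin1 by 0.96, Snx25 by 0.94 and Arhgef11 by 0.86. At 4 months against naive lung 2 rose, Arhgef12 by 1.44 (SE 0.23) and Grk5 by 0.85 (SE 0.20). The median of the list was 0.33 at day 4 and 0.51 at week 2 against naive lung and -0.53 from week 2 to 4 months, where all genes had medians of -0.06, -0.04 and 0.02. The part of the narrower signal range of the naive and 4-month arrays in these medians was not tested. None passed between lymph node and lung at either time. There 0.978% of all genes were higher in the lymph node and 1.35% lower at day 4, and 0.334% and 0.446% at week 2. Of all genes, 10.8% rose and 5.73% fell at day 4 against naive lung, and 6.75% and 2.87% at week 2. The shares were 4.85% and 11.5% from week 2 to 4 months and 0.717% and 1.25% at 4 months against naive lung.

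Of the 13 G alpha subunits, the direct substrates of RGS proteins, 2 rose and 0 fell at day 4 against naive lung. Of all genes, 10.8% rose and 5.73% fell there. Gna15, a Gq family subunit of blood cells, rose by 1.44 (SE 0.23, adjusted p = 0.000716) and Gna13, a subunit of another G alpha family, by 0.81 (SE 0.17, adjusted p = 0.00376). At week 2 Gna15 alone passed (0.97, SE 0.23), and at 4 months against naive lung Gna11 alone fell (by 1.46, SE 0.29). The 3 that fell from week 2 to 4 months were Gna11, Gna15 and Gnal, which fell by 1.54, 0.91 and 0.76. Gna13 was lower in the lymph node than in the lung at day 4 (-0.92, SE 0.15, adjusted p = 0.00182), the 1 subunit to differ between tissues. At day 4, 0.978% of all genes were higher in the lymph node and 1.35% lower. Of 14 G beta and gamma subunits, Gnb4 rose by 1.66 (SE 0.24, adjusted p = 0.000259) at day 4 and by 1.12 (SE 0.24) at week 2 against naive lung, fell by 0.89 from week 2 to 4 months and fell by 0.91 (SE 0.21) from day 4 to week 2 in the lymph node. Gnb1 and Gng10 also fell from week 2 to 4 months, each by 0.74, and Gng10 was lower at 4 months than in naive lung by 0.85 in size.

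Among 9 other regulators of G proteins, none passed against naive lung at any time. Later, from week 2 to 4 months, 3 fell and 0 rose: Arrb2, the beta-arrestin that uncouples receptors, by 1.07 (SE 0.23), Gpsm3 by 0.97 (SE 0.26) and Ric8b by 0.88 (SE 0.26). Gpsm2, a GoLoco protein of spindle orientation, was higher in the lymph node than in the lung at day 4 (1.11, SE 0.20, adjusted p = 0.00408) and fell by 1.52 (SE 0.20, adjusted p = 0.000178) from day 4 to week 2 in the lymph node. Of 25 effectors, 3 rose and 1 fell at day 4 against naive lung, where 10.8% of all genes rose and 5.73% fell. Plcb4, a phospholipase C beta, rose by 1.55 (SE 0.22, adjusted p = 0.000189), Pde4a, a cyclic AMP phosphodiesterase, by 1.25 (SE 0.22) and Prkar1a, a regulatory subunit of protein kinase A, by 0.64 (SE 0.20), and Adcy2, an adenylyl cyclase, fell by 0.67 (SE 0.18). At week 2 Plcb4 (1.43, SE 0.22) and Prkar2a (1.00, SE 0.30) were the 2 that rose. From week 2 to 4 months 5 fell, led by Plcb3 by 1.15 and Pde4a by 0.92. Pde4a was lower in the lymph node than in the lung at day 4 (-1.002, SE 0.20, adjusted p = 0.0086).

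At day 4 against naive lung the median change was 0.22 for the G alpha subunits, 0.28 for the beta and gamma subunits, 0.27 for the other regulators, 0.20 for the effectors and 0.01 for the receptors below, against -0.06 over all genes. Between week 2 and 4 months these medians were -0.50, -0.12, -0.33, -0.20 and -0.07, against 0.02 over all genes. For the counts of these lists, 6.75% of all genes rose and 2.87% fell at week 2 against naive lung. From week 2 to 4 months 4.85% of all genes rose and 11.5% fell. At 4 months against naive lung 0.717% rose and 1.25% fell, and from day 4 to week 2 in the lymph node 0.528% and 1.18%. In the lymph node against the lung at day 4, 0.978% were higher and 1.35% lower.

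Among the receptors whose signals RGS proteins end, 31 of 38 listed lymphocyte G protein-coupled receptors were measured. Of these, 7 rose and 4 fell at day 4 against naive lung, where 10.8% of all genes rose and 5.73% fell. Ccr4, a chemokine receptor of type 2 lymphocytes, rose by 2.22 (SE 0.17, adjusted p = 1.3e-06), Fpr2, a formyl peptide receptor, by 2.10 (SE 0.66), Ptger2, a prostaglandin receptor, by 1.63 (SE 0.22) and Cysltr2, a leukotriene receptor, by 1.53 (SE 0.27). Nmur1, the neuromedin U receptor, fell by 1.35 (SE 0.24, adjusted p = 0.00113). At week 2 against naive lung 3 rose and 2 fell, where 6.75% of all genes rose and 2.87% fell. Ccr4 was higher by 1.12 and S1pr1, which guides exit from tissues, lower by 1.75 in size. Naive T cells also carry S1pr1, and the naive arrays were those with the higher T cell marker means; the part of these in the value was not tested. From day 4 to week 2 in the lung 2 rose and 3 fell, where 0.419% of all genes rose and 1.39% fell. Among them Nmur1 rose by 1.26, and Ptger2 and Ccr4 fell by 1.24 and 1.10. From week 2 to 4 months 1 rose and 6 fell, against 4.85% and 11.5% of all genes, led by Ptger4, which fell by 1.31.

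Between tissues at day 4, 4 of the 31 receptors were higher and 6 lower in the lymph node than in the lung, against 0.978% and 1.35% of all genes. Nmur1 was higher by 1.88 (SE 0.21, adjusted p = 7.71e-05) and S1pr1 by 0.96 (SE 0.20). Fpr2 was lower (-2.46, SE 0.59), as were the chemokine receptors Ccr8 (-1.57, SE 0.29) and Cxcr4 (-1.11, SE 0.23). At week 2, 2 were higher (Nmur1 by 0.94 and Ccr4 by 0.70) and 3 lower, Ccr8 by -1.39, Cxcr4 by -1.33 and Calcrl, part of the receptor of the neuropeptide CGRP, by -1.17. Of all genes, 0.334% were higher and 0.446% lower in the lymph node at week 2. Chil3 and Mrc1 from the macrophage list were also lower in the lymph node at day 4, by -6.51 (SE 1.03) and -2.45 (SE 0.50), as was S100a9 from the neutrophil list (-3.55, SE 0.91). The part of macrophages and neutrophils in the values of Fpr2, a receptor they also carry, was not tested.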

How the data were processed

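The 16 samples were measured on single-colour expression arrays, with RNA extracted with Trizol and labelled with a Nugen Encore biotin kit, per the labels' protocols. The authors deposited log2 signals, made in Affymetrix Expression Console by RMA according to the submitters' processing notes. The sources used here give neither versions nor a genome build. RMA normalizes probe signals between arrays, so differences in RNA content between cells cannot be seen, although the ranges of the deposited values still differed between arrays; no scanner files were used, so background was not reassessed. Array number, 2 or 3 a group, limits the precision.

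Of 41345 probe sets, 23521 had 1 gene symbol in the probe annotation, 1814 several and 16010 none; 23328 of the first matched RefSeq (GRCm38.p6) by Entrez identifier. The probe set with the highest mean stood for each of the 1082 genes with several, leaving 22180 genes. Group means of all 16 arrays were fitted in 1 model with limma 3.58.1 in R 4.3.3 (10 residual and 6.52 prior degrees of freedom, two-sided tests, Benjamini-Hochberg threshold 0.05). The procedure was also run on simulated data with independent noise of the same size for all genes of a group. That setting is simpler than these arrays, and no result given here rests on it.

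The members and gene lists were chosen with earlier results of these data known. Named were all 8 members, in each list and comparison up to 4 called genes with the largest change (a few more only to complete a count or follow a gene already named), and for members whose group means ranged over at least 1 log2 unit the 6 genes with the highest Pearson's r. Rgs8, Rgs21, and the marker genes named were added for position or cell type. Alternatives, read for the members alone, were array weights, repeated quantile normalization, centred medians, a filter on dim genes, trend and robust options, fits of the groups compared, the mean of probe sets, a replicate block and leaving out each array. Those chosen after seeing the data left out the macrophage-high lung arrays (day 4 replicates 1 and 2, week 2 replicate 3, which leaves 1 day 4 lung array), kept the 12 arrays of groups of 3, or used the other Rgs2 probe set. Figures were drawn with matplotlib 3.10.9.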

Additional observations from a re-analysis of the deposited data

Results flagged for a closer look

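The change of Rgs16 from day 4 to week 2 ran in opposite directions in the 2 tissues. Each week 2 lung array (8.28 to 8.59) was below each day 4 lung array (9.04 to 10.37), and each week 2 lymph node array (4.99 to 5.50) was above each day 4 lymph node array (3.73 to 4.93). The lymph node change exceeded the lung change by 2.06 on the log2 scale (SE 0.59). The difference was not tested, because the family was chosen for the values of Rgs16.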

How the results depend on the processing

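Of the 11 calls among the 7 tested members, all 11 held with centred medians, the dim-gene filter, the trend and robust options and the mean of probe sets. With array weights 7 held, with repeated quantile normalization 7, with only the groups compared 6 and without the macrophage-high lung arrays, which leaves day 4 lung with 1 array and the spread to be taken from the rest, 5. At day 4 against naive lung, 1 member passed without the macrophage-high arrays. At 4 months against naive lung, 0 passed with array weights, with only the groups compared and without the macrophage-high arrays, and 0 to 1 when each array was left out. From day 4 to week 2 in the lung, 0 passed with quantile normalization, with only the groups compared and without the macrophage-high arrays, and 0 to 1 over the left-out arrays. From week 2 to 4 months, 2 passed with array weights, 2 with quantile normalization, 2 with only the groups compared and 2 without the macrophage-high arrays, and 1 to 4 over the left-out arrays. From day 4 to week 2 in the lymph node, 1 passed with array weights and 1 with the trend and robust options, and 0 to 1 over the left-out arrays. Between tissues at week 2, 2 passed with array weights, 1 with only the groups compared and 1 with only the groups of 3 arrays, and 0 to 1 over the left-out arrays. In the test of differing change 1 passed with array weights. Rgs16 at 4 months ranged over the left-out arrays from -0.22 to 1.60 against naive lung and from -3.55 to -1.73 against week 2. Signs turned for Rgs2 on the other probe set at day 4 against naive lung (-0.23) and in the test of differing change (-0.11), and for Rgs10 at 4 months against naive lung with quantile normalization (0.05). Fewer arrays entered the fits that left arrays out; for the other changes the cause was not tested.

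With the replicate number as a block, all 11 calls held and 0 were gained, and Rgs16 was higher at day 4 than in naive lung by 4.46. Of 36 pairs of same-numbered arrays, 2 correlated over 0.1 in their deviations from the group means (r -0.10 to 0.18). For lung and lymph node arrays of the same time, r was 0.09, 0.03 and 0.18 at day 4 and 0.03, 0.01 and 0.02 at week 2. Differently numbered arrays were not compared, so these values cannot show whether the numbers pair the samples.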

Other observations

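Over the 16 arrays Rgs1 was followed most closely by Stag1, a cohesin subunit, Arntl, the clock factor BMAL1, Stau1, an RNA-binding protein, Rock1, a kinase of the actin cytoskeleton, Zfp148 and Ankrd12, at Pearson's r of 0.92 to 0.94. Arntl had group means of 6.24 in naive lung and 7.56, 7.50 and 6.65 at day 4, week 2 and 4 months, and 7.21 and 7.53 in the lymph node. Rgs18 was followed by Dubr, Armh3, Itpripl2, Sars, a seryl-tRNA synthetase, Crebrf and Xpot, a tRNA exporter, at 0.90 to 0.95. Rgs10 was followed by Jtb, Alg5, Nedd8, a ubiquitin-like protein, Ufc1, Bst2 and Stk19, at 0.90 to 0.93, and Bst2, the interferon-induced tetherin, had lung means of 5.43 (naive), 8.86 (day 4), 6.60 (week 2) and 6.03 (4 months). Rgs19 was followed by Cnih1, Sdhb, a subunit of succinate dehydrogenase, Psmc5, a proteasome subunit, Arfip1, Acat1 and Dnttip1, at 0.93 to 0.94. Its rank correlations with these 6 were lower, 0.55 to 0.79, and all 6 had their lowest group mean at 4 months. Each is a description over 16 points from 6 groups.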
